A study of Mus musculus with 23 samples.

Results

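Catalase (Cat), the 3 superoxide dismutases (Sod1, Sod2 and Sod3) and 5 glutathione peroxidases (Gpx1, Gpx3, Gpx4, Gpx7 and Gpx8) were followed in RNA-Seq of mouse bone. The 9 genes were taken by symbol from the TPM values, which listed 17644 genes, and were matched to the counts by gene ID. Tests covered the 14364 genes that reached 10 counts in 5 or more mice, all 9 members among them. The study asked whether loss of Sarm1, a gene that drives the self-destruction of injured axons, alters the response of bone to type 1 diabetes (T1D). With 1 library per mouse, there were 5 WT Control mice and 6 mice in each of the groups WT T1D, KO Control and KO T1D. Every animal was a female of strain C57BL6/N, 11 weeks old, and KO animals were labelled as global Sarm1 knockouts. T1D mice had received repeated injections of streptozotocin, a toxin of pancreatic β cells, at 100 mg/kg each. They were studied after 3 weeks of diabetes, while Control mice had been given saline. RNA came from the femur and tibia of 1 hind limb after the epiphyses were cut off and the marrow was spun out.

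These enzymes clear the reactive oxygen species that respiration and oxidases release. Superoxide dismutases convert superoxide to hydrogen peroxide in the cytosol (Sod1), the mitochondrial matrix (Sod2) and the extracellular space (Sod3). Catalase, a heme enzyme of peroxisomes and of red blood cells, breaks hydrogen peroxide down to water and oxygen. Glutathione peroxidases reduce peroxides with glutathione, and Gpx1 (cytosol and mitochondria), Gpx3 (secreted into plasma) and Gpx4 (lipid peroxides in membranes) carry selenocysteine in the active site. Gpx7 and Gpx8 reside in the endoplasmic reticulum (ER), carry cysteine there and take part in oxidative protein folding. Diabetes is known for a rise in oxidant production in many tissues, and bone holds both matrix-secreting cells and, in its residual marrow, erythroid cells rich in peroxide-removing enzymes.

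Library totals lay between 16938101 and 20135592 counts, and the 9 genes took from 0.277% to 0.466% of them. Counts were scaled with edgeR's TMM method to CPM, a count relative to the scaled library total, and adjusted p values are from edgeR's quasi-likelihood test with Benjamini-Hochberg adjustment over all 14364 genes. Sarm1 itself was listed at 0.08 to 0.62 TPM in all 23 mice and did not separate the groups (KO vs WT log2 fold change -0.55 in Control and 0.78, higher in KO, in T1D, adjusted p = 0.999 and 0.281 with edgeR), so its RNA does not check the genotype. Over all genes, edgeR called 4 between KO and WT in Control and 13 in T1D (lowest adjusted p = 2.01e-15 and 1.23e-16). Markers of osteoblasts and osteocytes were present in every mouse. Erythroid markers (11 of 12 listed, all but Ahsp) summed to between 235700 and 471900 TPM, although the bones had been depleted of marrow. The WT T1D mice A3905 and A3906 stood apart with the lowest osteoblast and the highest erythroid marker scores of all 23 mice. They also had the highest osteoclast, neutrophil and adipocyte scores and the lowest B cell and chondrocyte scores. The main results with T1D in WT mice that rest on them are given with and without both. Mouse numbers of the A17 series occurred only in WT animals (1 Control and 3 T1D). Changes with T1D in WT mice are therefore also given from the A36 to A39 series alone (4 WT Control and 3 WT T1D), for all members but Sod2 and Sod3. Those WT T1D mice are A3905, A3906 and A3909. Effects of genotype, the marker lists and the gene lists are given from all mice, so number series and genotype are partly confounded in the genotype comparisons.

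In GRCm38.p6, Cat lies on chromosome 2 (103453904 to 103485153, minus strand) and Gpx1 on chromosome 9 (108339080 to 108340342, plus strand). Sod1 is on chromosome 16 (90220762 to 90226333), Sod2 on 17 (13007839 to 13018119), Sod3 on 5 (52363804 to 52369738), Gpx3 on 11 (54902854 to 54910387) and Gpx4 on 10 (80047166 to 80056439), all on the plus strand. Gpx7 lies on chromosome 4 (108400217 to 108406713) and Gpx8 on 13 (113042757 to 113046430), both on the minus strand. Sod1 overlaps Scaf4 and Gpx8 overlaps Cdc20b on the opposite strand, and Gpx4 has a processed pseudogene, Gpx4-ps2, at chromosome 10, 45875291 to 45876086. The libraries marked strand, but whether the counting used it is not given in the sources used here, so reads of these 3 genes could have been shared with those neighbors or that copy. RefSeq promoter windows were found for 8 of the 9 genes (all but Sod3). The 250 bases before the annotated start are shown for Cat and Gpx1, the 2 genes called higher with T1D in WT mice, and for Sod1, the only member whose window held the core of an antioxidant response element. Capitals mark CCAAT or its complement ATTGG in Cat and Sod1, and in Sod1 also GCGTGGTCA, the complement of the element's core TGACNNNGC, 56 bases before the start. Coordinates are chr2:103485154-103485403 on the minus strand for Cat, chr9:108338830-108339079 on the plus strand for Gpx1, and chr16:90220512-90220761 on the plus strand for Sod1.
Cat: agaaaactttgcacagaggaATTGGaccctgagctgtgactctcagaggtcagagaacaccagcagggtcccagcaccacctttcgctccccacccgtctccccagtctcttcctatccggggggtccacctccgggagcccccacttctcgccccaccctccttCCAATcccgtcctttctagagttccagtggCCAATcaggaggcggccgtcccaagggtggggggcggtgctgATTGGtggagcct
Gpx1: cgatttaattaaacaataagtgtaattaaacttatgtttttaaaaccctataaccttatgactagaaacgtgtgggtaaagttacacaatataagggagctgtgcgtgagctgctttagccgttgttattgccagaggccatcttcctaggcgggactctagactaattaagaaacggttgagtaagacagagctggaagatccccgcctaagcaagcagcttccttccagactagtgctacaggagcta
Sod1: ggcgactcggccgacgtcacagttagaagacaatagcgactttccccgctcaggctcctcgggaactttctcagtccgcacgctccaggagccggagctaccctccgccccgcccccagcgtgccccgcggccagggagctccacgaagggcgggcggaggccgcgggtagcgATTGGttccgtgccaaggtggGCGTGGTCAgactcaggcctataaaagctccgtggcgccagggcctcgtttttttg
Both strands were searched for 4 motifs, with no overlap between them required or barred. CCAAT, the site of the NF-Y factor, occurred 4 times in the Cat window, at 230, 85, 55 and 13 bases before the start, and was present in 33.8% of 32851 promoter windows of the same length. Gpx1 had none of the 4 motifs, and its window was 42.0% G or C, against 62.0% for Cat and a median of 52.4% over all promoters. TGACNNNGC was present in 10.2% of promoters, the GC box GGGCGG in 32.7% and the erythroid GATA site AGATAA in 9.99%. AGATAA was in no member's window, which says only that these letters are absent there.

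Levels between genes were compared on TPM, which is per length. Gpx1 was the highest, with a mean of 2134 TPM over the 23 mice (range 1766 to 2573), and ranked 29 of 17644 genes. Gpx3 followed at 1067 TPM (743 to 2091, rank 79), then Gpx4 at 487 TPM (398 to 567), Sod1 at 233 TPM (189 to 280) and Cat at 127 TPM (110 to 145). These 5 genes did not overlap with the rest: Gpx8 averaged 67.2 TPM (14.4 to 107), Gpx7 18.2 TPM (2.0 to 31.6), Sod3 16.7 TPM (9.8 to 29.6) and Sod2 15.4 TPM (11.1 to 22.1). The neighbors Gpx7, Sod3 and Sod2 overlapped over mice and have no clear order. Gpx1 alone held 51.4% of the summed TPM of the 9 genes, Gpx3 25.4% and Gpx4 11.7%. On CPM, Gpx4 varied least over mice (coefficient of variation 11.5%) and Gpx7 most (32.5%), and the highest mouse exceeded the lowest 1.53-fold for Gpx4 and 11.4-fold for Gpx7. Gpx2 and Gpx5 were listed but not tested, with at most 11 counts and 1 count in a mouse, and Gpx6 was not analysed here.

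**Figure D1:**
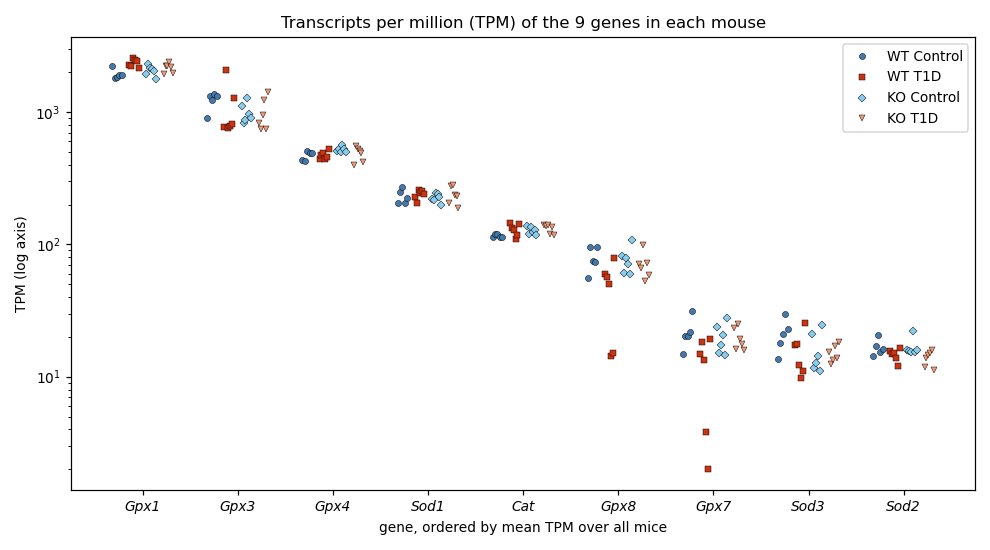
TPM of each gene (log axis) in each of 23 mice, with genes ordered by mean and one symbol per group; each point is 1 mouse. Gpx1 at 1766 to 2573 TPM is the highest of the 9 genes in all 23 mice, and the 4 lowest genes stay under 108 TPM.

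With T1D in WT mice, Cat and Gpx1 rose, and no member fell past the threshold. These 2 of 9 calls stand against 2.33% of all tested genes (334 of 14364, of which 215 higher and 119 lower). At an unadjusted p under 0.05, 4 of 9 members were higher (Cat, Sod1, Gpx1 and Gpx4) and 0 lower, against 22.2% of all genes. The median change of the 9 genes was a log2 fold change of 0.11 (6 higher, 3 lower), and that of all tested genes was -0.01. In bulk bone, a shift in the number of cells of a type and a shift in RNA per cell cannot be told apart, which holds for each result here.

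Cat, the peroxisomal and erythrocyte enzyme, was measured at 190.9, 191.0, 195.5, 196.2 and 210.2 CPM in the 5 WT Control mice. In the WT T1D mice it had a lowest value of 251.2 CPM, a median of 259.9 CPM and a highest of 303.4 CPM. Every diabetic WT mouse was above every nondiabetic one. Of all genes, 2.19% (315 of 14364) separated these groups completely, and among the 9 members Cat and Gpx4 did. The log2 fold change was 0.44 ± 0.076 (SE), or 1.36-fold (edgeR, adjusted p = 0.0174, the fifth lowest p of all genes). Within the A36 to A39 mice, whose 3 diabetic WT animals include A3905 and A3906, it was 0.47 (edgeR, adjusted p = 0.0102). In that fit 15.5% of all genes were called. Without A3905 and A3906 the Cat change was 0.43 but was no longer called (edgeR, adjusted p = 0.1). Without those 2 mice edgeR called 0 of all genes. Leaving out WT Control A3767, A3903 or A3907 alone also ended the call, with edgeR adjusted p values of 0.0591, 0.0502 and 0.0659 at log2 fold changes of 0.44, 0.43 and 0.44. In these fits edgeR called 0, 3 and 0 genes in all. On TPM the groups overlapped (113.5 to 120.7 TPM in WT Control, 109.5 to 145.5 TPM in WT T1D), and limma on log2(TPM + 1) gave 0.15 (adjusted p = 0.106). The median of all genes moved to -0.24 on that scale, and Cat stood 0.39 above it.

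The superoxide dismutases did not pass the threshold in this comparison. Sod1, the copper and zinc enzyme of the cytosol, was measured at 82.6, 87.6, 88.6, 94.6 and 100.6 CPM in WT Control. In WT T1D it reached from 89.0 to 137.7 CPM with a median of 113.9 CPM, and 4 of 6 mice exceeded every Control. The log2 fold change was 0.34 ± 0.12 (edgeR, adjusted p = 0.0938). The 2 highest mice were A3905 and A3906, and without both the change was 0.19 (edgeR, adjusted p = 0.553), while the A36 to A39 mice alone gave 0.46, a call (edgeR, adjusted p = 0.0385). Leaving out WT T1D A1764 or A3909 also brought Sod1 past the threshold, at 0.41 and 0.38 (edgeR, adjusted p = 0.0386 and 0.0488). Those fits called 963 and 1262 genes in all, against 334 with every mouse. Sod2, the mitochondrial manganese enzyme, had 39.6, 40.3, 40.7, 41.8 and 49.4 CPM in WT Control and 41.9 to 50.4 CPM in WT T1D (median 44.8 CPM). These ranges overlapped, and the log2 fold change of 0.11 ± 0.10 had a 95% interval from -0.11 to 0.32. Sod3, the secreted enzyme, spread widely in WT Control (20.2, 23.1, 26.6, 30.3 and 40.4 CPM) and in WT T1D (18.8 to 35.7 CPM, median 23.3 CPM). Its log2 fold change of -0.18 ± 0.20 was smaller than that spread (edgeR, adjusted p = 0.646).

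Among the glutathione peroxidases, Gpx1, the most abundant, rose. It stood at 1139, 1150, 1258, 1291 and 1631 CPM in WT Control, and the highest of these was A1757, the only Control of the A17 series. In WT T1D the lowest mouse had 1483 CPM, the median was 1929 CPM and the highest, A3905, had 2332 CPM. The groups overlapped, since 4 of 6 diabetic mice were above every Control. The log2 fold change was 0.57 ± 0.13, or 1.48-fold (edgeR, adjusted p = 0.0367). It was 0.74 within the A36 to A39 mice (edgeR, adjusted p = 0.0102), 0.43 and not called without A3905 and A3906 (edgeR, adjusted p = 0.288), and 0.28 and called on TPM (limma, adjusted p = 0.0221). The call was lost when any of 9 mice was left out: WT Control A3767, A3903, A3904 or A3907, WT T1D A1787, A3905 or A3906, KO Control A3670, or KO T1D A3675. Adjusted p values with edgeR were then 0.0508 to 0.112, at log2 fold changes of 0.51 to 0.57. Those 9 fits called 0 to 70 genes in all.

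Gpx4, which guards membranes against lipid peroxides, was at 249.3, 287.5, 288.2, 291.6 and 301.8 CPM in WT Control and at 313.6 to 382.4 CPM (median 342.8 CPM) in WT T1D. All 6 diabetic mice exceeded all 5 Controls. The log2 fold change of 0.30 ± 0.086 nevertheless did not pass the threshold with edgeR (adjusted p = 0.0589). It passed with DESeq2 (adjusted p = 0.02, with 6.98% of all genes called), within the A36 to A39 series (0.39, edgeR, adjusted p = 0.0312) and without WT T1D A1764 or A3909 (edgeR, adjusted p = 0.0371 and 0.0393). The highest Gpx4 values belonged to A3905 and A3906 (382.4 and 380.2 CPM), both of the A36 to A39 series. Without both mice Gpx4 was not called, nor with the erythroid or the osteoblast marker score as a covariate. In each of those fits edgeR called 0 of all genes. On TPM the change was 0.01 (limma, adjusted p = 0.924), which is 0.25 above the median of all genes there. Gpx3, the plasma enzyme, had 969, 1140, 1252, 1285 and 1379 CPM in WT Control and 873 to 2278 CPM in WT T1D (median 1105 CPM). The highest value belonged to A1764 and lay far above the next mouse at 1328 CPM. The log2 fold change was 0.08 ± 0.20 with this mouse and -0.17 without it, and neither was called (edgeR, adjusted p = 0.866 and 0.522).

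The ER enzymes Gpx7 and Gpx8 were lower in part of the WT T1D mice. Gpx7 was at 12.5, 15.0, 15.3, 17.1 and 24.3 CPM in WT Control, and at 2.14, 4.25, 12.1, 14.2, 15.8 and 15.8 CPM in the 6 WT T1D mice. Gpx8 was at 37.7, 43.4, 46.3, 57.0 and 58.3 CPM in WT Control, and at 12.1, 12.5, 36.5, 38.6, 45.5 and 51.0 CPM in WT T1D. In both genes the 2 lowest values belonged to A3905 and A3906, and the other 4 diabetic mice lay within or just under the Control range. The log2 fold changes were -0.65 ± 0.33 for Gpx7 and -0.57 ± 0.28 for Gpx8 (edgeR, adjusted p = 0.242 and 0.227). Without A3905 and A3906 they were -0.22 and -0.18 (edgeR, adjusted p = 0.715 and 0.741). Within the A36 to A39 mice, where those 2 mice made up most of the 3 diabetic animals, Gpx7 was at -1.26 and was called lower (edgeR, adjusted p = 0.0442), and Gpx8 was at -1.01 (edgeR, adjusted p = 0.0576). Both were called lower on TPM, at -1.09 and -1.004 (limma, adjusted p = 0.0289 and 0.0256), where limma called 35.9% of all genes, 5071 of 5154 of them lower. Relative to the median of all genes on that scale, Gpx7 was at -0.85 and Gpx8 at -0.76. The calls over the 9 genes there were 1 higher (Gpx1) and 2 lower, in place of 2 higher and 0 lower.

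**Figure D2:**
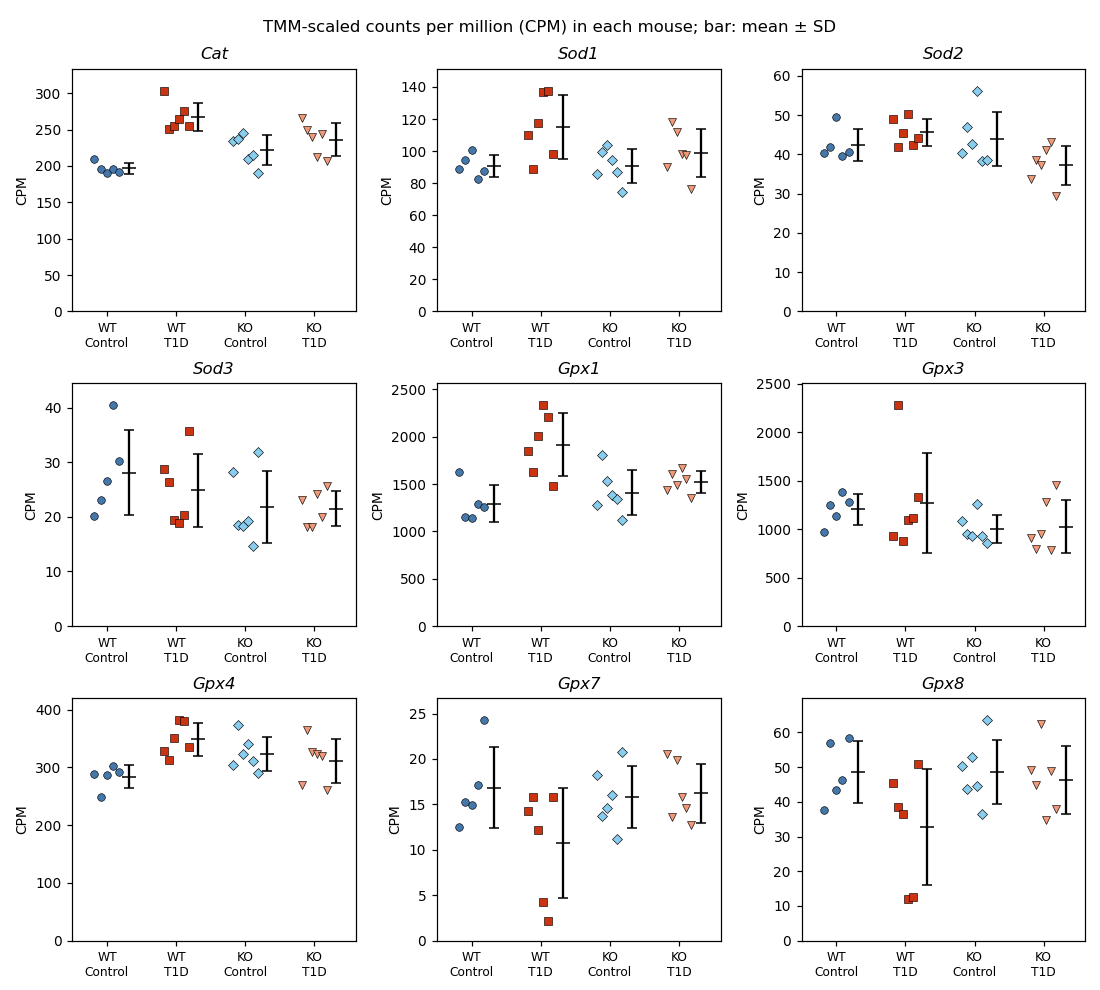
CPM (linear axis from 0) of the 9 genes in each mouse, by group; each symbol is 1 mouse and the bar gives the mean ± SD of the group. In Cat and Gpx4 all 6 WT T1D mice lie above all 5 WT Control mice, and in Gpx7 and Gpx8 the 2 lowest WT T1D mice lie apart from the other 4.

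Markers of several cell types moved in the same mice. All 11 erythroid markers tested were higher with T1D in WT mice (5 past the threshold, 0 lower, against 2.33% of all genes), with a median log2 fold change of 0.64. Without A3905 and A3906 all 11 were still higher, with a median of 0.41 against -0.01 over all genes. In that fit edgeR called 0 of all genes, so the absence of calls is not particular to these markers. Their summed level was 287400 to 370600 TPM in WT Control and 335100 to 471900 TPM in WT T1D, and none was at 0 in any mouse. Of 8 osteoblast markers, 7 were lower (2 past the threshold), with a median of -0.77 and a summed level of 31000 to 63870 TPM in WT Control and 3104 to 40980 TPM in WT T1D, again with none at 0. Without A3905 and A3906 all 8 were lower with a median of -0.37. All 5 chondrocyte markers were lower (0 called, median -1.09), and 4 of 4 adipocyte markers tested were higher (1 called, median 1.13). Without both mice these medians were -0.69 and 0.45. Macrophage markers were lower in 5 of 5 genes (0 called, median -0.14), and in 4 of 5 without both mice. With all mice, edgeR also called 0 osteocyte, osteoclast, neutrophil, B cell, skeletal muscle and endothelial markers.

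Over the 23 mice, the erythroid marker score (tested markers averaged as log2(CPM + 0.5)) ran with Gpx1 (r = 0.90, Spearman's rho = 0.87), Cat (r = 0.82, rho = 0.89) and Sod1 (r = 0.81, rho = 0.71). After the group means were removed, r was 0.81, 0.68 and 0.70 in these genes. Without A3905 and A3906 r was 0.83, 0.83 and 0.65. Gpx4 also ran with the erythroid score (r = 0.64, rho = 0.64), and Gpx7 and Gpx8 ran against it (r = -0.77 and -0.75). Without A3905 and A3906 these r values were 0.46, -0.51 and -0.42. Sod3 had r = -0.44 with that score, and Sod2 (r = 0.24) and Gpx3 (r = -0.12) had little relation to it. The osteoblast score ran with Gpx7 (r = 0.97, rho = 0.83) and Gpx8 (r = 0.96, rho = 0.79), and without A3905 and A3906 these r values were 0.84 and 0.75. Gpx1, Sod1 and Gpx4 ran against the osteoblast score (r = -0.77, -0.71 and -0.62, or -0.67, -0.36 and -0.50 without both mice). These are descriptions over 23 mice, and each pair of measures shares a library and its scaling.

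With the erythroid score as a covariate, the change with T1D in WT mice was 0.26 ± 0.080 for Cat, 0.17 ± 0.11 for Gpx1 and 0.00 ± 0.12 for Sod1 on the log2 scale (edgeR, adjusted p = 0.999 for each). With the osteoblast score, Gpx7 was at 0.17 ± 0.13 and Gpx8 at 0.11 ± 0.12 (edgeR, adjusted p = 0.84 and 0.896), and Cat was at 0.43 ± 0.088 (edgeR, adjusted p = 0.197). With the erythroid or the osteoblast covariate, edgeR called 0 of the 14364 genes for T1D in WT mice. The scores differ between the groups themselves, so a change in the genes and a change in the mix of cells cannot be told apart by these fits.

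**Figure D3:**
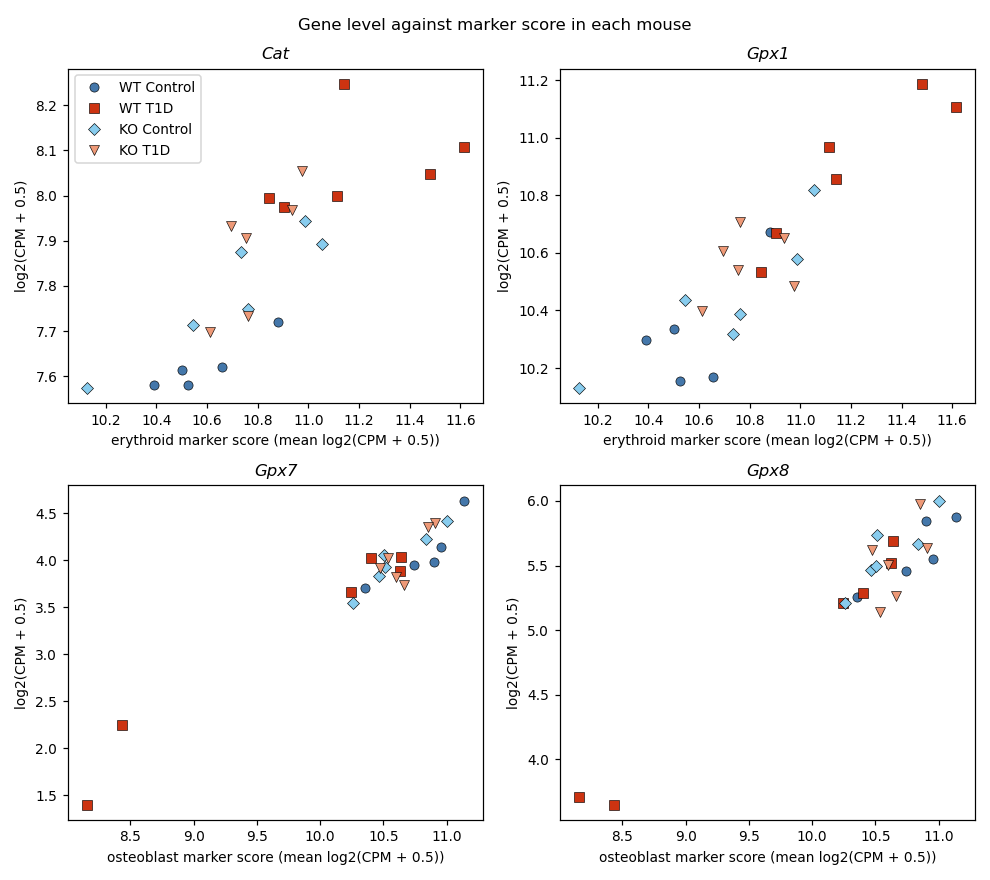
Level of Cat and Gpx1 against the erythroid score, and of Gpx7 and Gpx8 against the osteoblast score; both axes are log2(CPM + 0.5), the scores being means over markers, and each point is 1 of 23 mice. Cat and Gpx1 climb with the erythroid score (r = 0.82 and 0.90), and the 2 WT T1D mice with the lowest osteoblast scores also hold the lowest Gpx7 and Gpx8.

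With T1D in KO mice, no member passed the threshold. edgeR called 0 of 9 members and 0% of all genes, with 1 member (Sod2) under an unadjusted p of 0.05 against 3.15% of all genes. DESeq2 and limma on TPM also called 0 members, and 0 of all genes. Cat ranged from 190.1 to 245.8 CPM in KO Control (median 224.3 CPM) and from 207.2 to 265.4 CPM in KO T1D (median 241.6 CPM), and these ranges overlapped. Its log2 fold change of 0.09 ± 0.072 had a 95% interval from -0.06 to 0.24. Gpx1 went from 1121 to 1807 CPM in KO Control (median 1362 CPM) and from 1350 to 1670 CPM in KO T1D (median 1524 CPM), with a log2 fold change of 0.11 and an interval from -0.14 to 0.36. Gpx4 overlapped as well (291.1 to 372.9 CPM and 261.4 to 364.4 CPM, log2 fold change -0.06), as did Sod1 (74.2 to 103.7 CPM and 76.4 to 118.0 CPM, 0.12).

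Sod2 had 38.3 to 56.2 CPM in KO Control (median 41.6 CPM) and 29.5 to 43.1 CPM in KO T1D (median 37.9 CPM). In KO T1D 3 of 6 mice were below every KO Control, and the change of -0.24 ± 0.097 had an unadjusted p of 0.0221 but an adjusted p of 1 with edgeR. Without KO Control A3679, the highest of its group, it was -0.16. Gpx7 (11.2 to 20.8 CPM and 12.8 to 20.5 CPM, log2 fold change 0.04) and Gpx8 (36.5 to 63.6 CPM and 34.8 to 62.5 CPM, -0.07) had no KO T1D mouse near the levels of A3905 and A3906. Sod3 (14.7 to 31.9 CPM and 18.1 to 25.6 CPM, -0.02) and Gpx3 (853 to 1258 CPM and 785 to 1455 CPM, 0.04) overlapped as well. Summed levels of the erythroid markers overlapped widely in KO mice too (235700 to 395000 TPM in Control, 294500 to 381200 TPM in T1D), and the median marker change was 0.08.

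**Figure D4:**
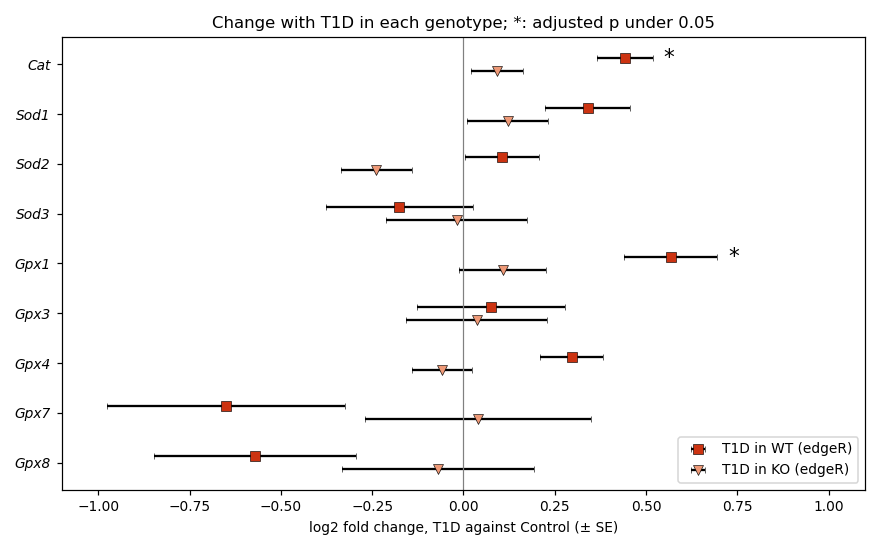
Log2 fold change with T1D against Control (± SE, edgeR) in WT mice (squares) and in KO mice (triangles) for the 9 genes; an asterisk marks an adjusted p under 0.05. Only Cat (0.44) and Gpx1 (0.57) in WT mice carry an asterisk, and Gpx7 has the widest error in each genotype (SE 0.33 in WT and 0.31 in KO).

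The test of the difference between genotypes, the genotype by T1D interaction, called 0 of 9 members and 0% of all genes with edgeR, and DESeq2's likelihood ratio test also called 0. At an unadjusted p under 0.05, 4 of 9 members had a negative interaction and 0 a positive one, against 10.2% of all genes. These were Cat (-0.35 ± 0.10), Gpx4 (-0.36 ± 0.12), Gpx1 (-0.46 ± 0.17) and Sod2 (-0.34 ± 0.14), each with an adjusted p of 0.479 by edgeR. So a change was called in WT and not in KO mice for Cat and Gpx1, but a difference between the genotypes was not. The smallest adjusted p of any gene in this test was the same 0.479. Gpx7 and Gpx8 had the opposite sign (0.69 ± 0.45 and 0.50 ± 0.38, edgeR, adjusted p = 0.581 and 0.637). Over 11 other settings, the fit without A3905 and A3906 among them, the interaction was -0.38 to -0.10 for Cat and -0.45 to -0.12 for Gpx4. It was -0.64 to -0.090 for Gpx1 and -0.35 to -0.090 for Sod2, with none called.

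Averaged over both genotypes, T1D raised 1 of 9 members, Cat (0.27 ± 0.052, edgeR, adjusted p = 0.0421), against 0.111% of all genes (16 of 14364). At an unadjusted p under 0.05, Cat, Sod1 and Gpx1 were higher, against 16.4% of all genes. The call for Cat was lost in 17 of 23 fits that left out 1 mouse, with edgeR adjusted p values up to 0.107 at log2 fold changes of 0.24 to 0.28. Those 17 fits called 0 to 15 genes in all. The 17 mice were WT Control A3767, A3903, A3904 and A3907, WT T1D A1787, A3905 and A3906, KO Control A3670, A3679, A3680 and A3766, and all 6 KO T1D mice. This average shares its mice with the comparisons above.

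Genotype alone changed no member past the threshold. In Control mice, edgeR called 0 of 9 members (DESeq2 also 0) against 0.0278% of all genes, and 2 were under an unadjusted p of 0.05 against 4.8%. Both were higher in KO: Cat by 0.17 ± 0.076 and Gpx4 by 0.19 ± 0.086 on the log2 scale (edgeR, adjusted p = 0.999 for each). For Gpx4, 5 of 6 KO Control mice were above every WT Control, and for Cat 4 of 6 were above and 1 was below.

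In T1D mice, edgeR again called 0 of 9 members against 0.0905% of all genes. DESeq2 also called 0 of 9 members, while it called 239 of the 14364 genes. Under an unadjusted p of 0.05 were 3 members against 17.1% of all genes, all lower in KO: Sod2 (-0.29 ± 0.097), Gpx1 (-0.34 ± 0.12) and Cat (-0.18 ± 0.072), with edgeR adjusted p values of 0.177, 0.19 and 0.226. For Sod2 and Cat, 5 of 6 KO T1D mice were below every WT T1D mouse, and for Gpx1 2 of 6 were. Over 11 other settings, the fit without A3905 and A3906 among them, Sod2 was at -0.31 to -0.089 and Gpx1 at -0.41 to -0.046. Cat was at -0.19 to 0.023 there. When 1 mouse was left out, the Gpx1 change was smallest without A3905 (-0.28). On TPM the sign for Cat turned to 0.02 (limma, adjusted p = 0.825). On CPM, the order of group means was WT Control, KO Control, KO T1D and WT T1D from low to high for Cat and Gpx1, and neighbors in that order overlapped. On TPM the Cat mean of KO T1D (131.7 TPM) was above that of WT T1D (129.9 TPM).

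The members ran together in 2 sets over the 23 mice. Sod1, Gpx1, Gpx4 and Cat varied together (r = 0.58 to 0.78 over their 6 pairs), with the highest r between Sod1 and Gpx1. After group means were removed, their r values were 0.24 to 0.74, the lowest between Cat and Gpx4. Gpx7 and Gpx8, the ER pair, had r = 0.94, or 0.73 without A3905 and A3906. Between the sets all 8 r values were negative, from -0.74 (Gpx1 and Gpx8) to -0.38 (Cat and Gpx8). Without those 2 mice they ran from -0.49 (Gpx1 and Gpx8) to -0.07 (Sod1 and Gpx8), and with group means removed Cat and Gpx8 had r = 0.02. Sod2, Sod3 and Gpx3 had no r above 0.54 with any other member.

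Among 13298 other tested genes with a mean of at least 1 CPM, the 3 nearest to each member in r over the 23 mice were sought. For Cat they were Ptp4a3 (r = 0.89), Slc4a1, the band 3 anion exchanger of red cells and one of the erythroid markers (0.87), and Bsdc1 (0.87). For Gpx1 they were Pola2 (0.94), Txnrd2, the mitochondrial thioredoxin reductase (0.93), and Hba-a1, an α-globin with a near-identical copy whose reads may be split (0.93). For Sod1 they were Nudt9 (0.93), Abcb4 (0.90) and Prdx2, the red cell peroxiredoxin (0.90). For Sod2, the mitochondrial enzyme, they were Uqcrc1 (0.82) and Ndufb9 (0.82), subunits of respiratory complexes III and I by name, and Tmem65 (0.80).

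Gpx4 was nearest to 3 ribosomal protein genes, Rpl17 (r = 0.88), Rps14 (0.88) and Rps18 (0.87). Gpx7 was nearest to P3h1, a collagen prolyl hydroxylase (0.98), Alpl, the bone alkaline phosphatase and an osteoblast marker here (0.98), and Cdo1 (0.98). Gpx8 was nearest to Creb3l3 (0.99), Fkbp7 (0.98) and Cgref1 (0.98), and without A3905 and A3906 these fell to 0.92, 0.91 and 0.91. Those of Gpx7 were 0.87, 0.90 and 0.87 without the same mice. Sod3 was nearest to C1qtnf1 (0.78), Vat1 (0.77) and Dnajb14 (0.75), and Gpx3 to Cacng7 (0.82), Itgb5 (0.80) and Col8a2 (0.78). Without A1764 and A3682, the 2 mice farthest from the Gpx3 median, those r values were 0.72, 0.61 and 0.65.

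Genes that supply or neighbor these enzymes were counted from lists, with T1D in WT mice. Of 8 genes of glutathione supply and recycling, 1 rose and 0 fell, all 8 were higher and the median was 0.24, against -0.01 over all genes. The called gene was Gclm, the modifier subunit of the rate-limiting enzyme of glutathione synthesis (0.49 ± 0.12, edgeR, adjusted p = 0.044), and its catalytic partner Gclc was at 0.41 ± 0.12 (adjusted p = 0.0558). Slc25a39, the mitochondrial glutathione importer, was at 0.42 ± 0.13 (adjusted p = 0.0651). Of 12 peroxiredoxin and thioredoxin genes, 2 rose and 0 fell (9 higher, median 0.09): Prdx3, the mitochondrial peroxiredoxin (0.37 ± 0.090, edgeR, adjusted p = 0.044), and Prdx2 (0.54 ± 0.15, adjusted p = 0.0499). Txnrd2 was at 0.41 ± 0.13 (adjusted p = 0.0702). Over all genes 2.33% were called in this comparison. Without A3905 and A3906 edgeR called 0 of all genes, so none of the 3 calls held. Gclm was then at 0.40, Prdx3 at 0.27 and Prdx2 at 0.34 (edgeR, adjusted p = 0.302, 0.308 and 0.371). When 1 mouse was left out, the glutathione count was 0 to 3 and the peroxiredoxin count 0 to 3. Both were 0 without WT Control A3767, where edgeR called 0 genes in all.

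In the other lists edgeR called 0 genes in WT mice, and their counts at an unadjusted p under 0.05 stand against 22.2% of all genes. Oxidative folding in the ER, where Gpx7 and Gpx8 act, had all 8 genes lower with a median of -0.18 and 4 under an unadjusted p of 0.05, led by the disulfide isomerases Pdia3 (-0.24 ± 0.092), Pdia4 (-0.32 ± 0.13) and P4hb (-0.20 ± 0.093). Without A3905 and A3906, 7 of these 8 genes were lower with a median of -0.10 and 0 under an unadjusted p of 0.05. In that fit edgeR called 0 of all genes. Peroxisome import, which brings catalase to its organelle, had 8 of 12 genes lower (median -0.05, 2 unadjusted, with Pex6 at -0.29 ± 0.11). Metal supply of the dismutases had 4 of 6 higher (median 0.02, 1 unadjusted, the metal importer Slc39a14 at -0.42 ± 0.14). Selenoprotein synthesis and selenium supply had 5 of 9 higher (median 0.05, 3 unadjusted), among them Eefsec, the selenocysteine elongation factor (0.19 ± 0.081), Sephs2 (0.21 ± 0.096) and, in the other direction, the selenoprotein P receptor Lrp8 (-0.22 ± 0.098). Producers of superoxide and hydrogen peroxide had 8 of 10 tested genes higher (median 0.14, 0 unadjusted). Regulators of antioxidant genes had 7 of 10 higher (median 0.08, 1 unadjusted), with Mafk, a partner of Nfe2l2, at 0.31 ± 0.10 and Nfe2l2 at 0.12 ± 0.060. In KO mice T1D changed 0 genes of each of these lists past the threshold, and the glutathione list had a median of 0.07 there.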

How the data were processed

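Bone RNA from 23 mice was sequenced by the study as oligo dT, dUTP-marked libraries (paired-end DNBSEQ reads, SOAPnuke, HISAT and Bowtie2, GRCm38.p6; versions are not given in the sources used here). The authors deposited RSEM expected counts, held as whole numbers without scaling, and deposited TPM values from the sequencing provider. Groups were taken from the labels. The members and gene lists were chosen with earlier results of these data known.

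Genes reaching 10 counts in 5 or more mice were fitted in R 4.3.3 with edgeR 4.0.16 (TMM, quasi-likelihood, 4 group means, dispersion shared by all 23 mice), with a threshold of 0.05 on Benjamini-Hochberg adjusted p values. SE is the log2 fold change divided by the root of the F statistic, and 95% intervals use it with the residual degrees of freedom of the group means. Alternatives were DESeq2 1.42.0 without independent filtering, limma 3.58.1 on log2(TPM + 1) and log2(TPM + 0.1), RLE factors, library totals, no gene filter, the A36 to A39 mice alone, marker scores as covariates, and leaving out mice. Only the edgeR fit without covariates was tested on simulated data, with counts drawn from its own dispersion estimates. Named genes were all 9 members, the 3 genes nearest to each in Pearson's r of log2(CPM + 0.5), and up to 3 genes with the lowest p of each list. Libraries of the same group were compared in 55 pairs, and none matched within sampling noise (chi-square per gene 10.9 or more).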

Additional observations from a re-analysis of the deposited data

Results flagged for a closer look

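Of 36 sets of values (9 genes in 4 groups), 4 held 1 mouse far from the rest of its group, judged by its gap to the nearest mouse over the range of the group. Chance places about 1 in 20 groups there. Gpx3 was at 2278 CPM in WT T1D A1764, against 1328 CPM in the next mouse. Cat was at 210.2 CPM in WT Control A1757, Sod2 at 49.4 CPM in WT Control A3903, and Gpx4 at 249.3 CPM, the lowest of its group, in WT Control A3767. No interaction of a member passed the threshold after adjustment.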

How the results depend on the processing

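No paired analysis was possible because the groups share no mouse or replicate number. With T1D in WT mice, the count of members called (2, both higher) was 5 in the A36 to A39 mice alone. Of these, 4 were higher (Cat, Sod1, Gpx1 and Gpx4) and 1 lower (Gpx7). The count was 0 with the erythroid score, the osteoblast score or both as covariates and 0 without A3905 and A3906. The fit with both scores was chosen after seeing the data. Leaving out 1 mouse gave 0 to 4. The fits with 0 members called 0 or 3 genes in all, and those with 4 called 963 and 1262. Averaged over genotypes, the count (1, with 16 of all genes called) was 2 with DESeq2 (249 of all genes) and in the A36 to A39 mice (536). It was 0 with limma on TPM at pseudocounts 1 and 0.1 (1106 and 951 of all genes), library totals (24) and no gene filter (14). It was also 0 with the erythroid score, the osteoblast score or both as covariates (0, 4 and 0 of all genes) and without A3905 and A3906 (4). Leaving out 1 mouse gave 0 to 2, and the fit with 2 called 211 genes in all. The other 4 counts stayed at 0 under every alternative run. Over all genes, T1D in WT gave 334 calls with edgeR (64.4% higher), 1002 with DESeq2, 88 without the gene filter, 266 with library totals (28.6% higher), 5154 and 5173 with limma on TPM (1.61% and 1.55% higher), 2211 in the A36 to A39 mice, and 0 with each covariate fit or without A3905 and A3906. On TPM the median of all genes shifted by -0.24 and -0.29.

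Signs turned as follows for T1D in WT mice, all in log2 fold change and none of them called. With the erythroid score, the osteoblast score and both, in that order, Sod3 was 0.36, 0.17 and 0.37, Gpx7 0.11, 0.17 and 0.21, and Gpx8 0.022, 0.11 and 0.092, and Sod1 was -0.0060 with both. On TPM with pseudocounts 1 and 0.1, Sod2 was -0.17 and -0.18 and Gpx3 -0.28 and -0.28, and Gpx3 was -0.088 in the A36 to A39 mice and -0.17 to 0.16 when 1 mouse was left out. For T1D in KO mice, Sod3 was 0.086 with the erythroid score and 0.059 with both, Gpx8 0.037 with the erythroid score, and Gpx7 -0.024 with the osteoblast score and -0.0093 with both. On TPM, Gpx3 was -0.038 and -0.039 and Gpx7 -0.0040 and -0.0035, and with library totals they were -0.0047 and -0.0045. Leaving out 1 mouse in KO gave -0.11 to 0.12 for Sod3, -0.089 to 0.11 for Gpx3, -0.044 to 0.13 for Gpx7 and -0.18 to 0.017 for Gpx8. Cat in KO vs WT T1D mice was 0.023 and 0.023 on TPM. The cause was not tested in these cases.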
